A study of Homo sapiens with 12 samples.

Results

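The genes described here encode the ligands and receptors that were first known for steering growing axons: the Eph receptors and their ephrin ligands, the semaphorins with their plexin and neuropilin receptors, the SLIT ligands with their ROBO receptors, and the netrins with the receptors DCC and UNC5. The rule that takes the genes uses their names and no measured value: gene symbols of these families were taken, and 8 hyphenated names (antisense and read-through entries), 6 SLITRK genes, 1 pseudogene and UNC50 were dropped from the 88 names that matched. UNC50 shares the spelling but not the family, and its mean lay between 42.4 and 49.5 CPM (counts scaled to the same library total with TMM factors) in the 4 groups. The rule left 72 genes of 58174 in the table: 9 EPHA and 5 EPHB receptors, 5 ephrin-A and 3 ephrin-B ligands, 20 semaphorins, 9 plexins, 2 neuropilins, 3 SLIT ligands, 4 ROBO receptors, 6 netrins and 6 genes named for netrin receptors. All 72 are annotated as protein coding in GENCODE 29, and positions are given on GRCh38.

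The RNA came from NCI-H520, written H520 in the labels, an established human cell line of lung squamous cell carcinoma. The 4 groups of 3 libraries were control cells, cells given BLU9931 at 1 µM, cells given palbociclib at 1 µM, and cells given both drugs at these doses. The drug groups were treated for 72 h. BLU9931 blocks FGFR4, a fibroblast growth factor receptor, by a covalent bond, and palbociclib blocks CDK4 and CDK6, the kinases that work with D cyclins. What the control cells were given, and their time in culture, is not stated in the labels. It is not stated either whether replicate libraries stem from different cultures, and p-values therefore cover the spread between these libraries alone, which may be technical.

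Eph receptors are receptor tyrosine kinases that bind ephrins on the surface of a neighbouring cell, and both partners can signal. Secreted class 3 semaphorins act through a complex of a neuropilin and a plexin, whereas most membrane-bound semaphorins bind plexins directly. SLIT proteins act through ROBO receptors, and netrins attract or repel cells through DCC and the UNC5 proteins. In epithelia and their tumours the same families act in cell contact, migration and vessel growth.

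The libraries held between 21730722 and 35786607 counts. Libraries control 1 and palbociclib 3 stood apart from the other 10: across genes, the rank correlation of the deviation from the mean level with GC content was -0.667 and -0.735 in these libraries and -0.245 to 0.600 in the others. The guidance genes are GC-rich, with a median of 58.5% against 48.4% for all 20612 genes tested, and many of them read low in control 1 and palbociclib 3, so results are also given without both libraries. Of the squamous markers, SOX2 was high (342 to 443 TPM, a level per transcript length scaled to the same total in each library), but TP63, KRT5, KRT14, KRT17, DSG3 and PKP1 were at or near 0, and 7 of the 10 squamous markers averaged under 1 TPM. Of 7 epithelial markers, EPCAM, KRT8, KRT18, KRT19 and CLDN7 were abundant, while CDH1 averaged 14.8 TPM and CLDN4 only 1.23 TPM over the 12 libraries. Of 12 neuronal markers, TUBB3, MAP2, NEFL and SYT1 were expressed and 7 averaged under 1 TPM. The summed neuronal markers reached 215 to 278 TPM in control, 198 to 248 with BLU9931, 222 to 338 with palbociclib and 291 to 329 with both drugs, and their part in the changes below was not tested. Summed markers were low for endothelium (0.886 to 2.33 TPM) and leukocytes (2.15 to 5.94 TPM), with PECAM1, CDH5, EMCN and PTPRC at or near 0. Fibroblast markers summed to 3.85 to 6.31 TPM in control, 7.50 to 8.12 with BLU9931, 3.31 to 5.56 with palbociclib and 2.16 to 3.65 with both drugs.

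Of the 72 guidance genes, 64 had enough counts to be tested. The other 8 (EPHB6, PLXNA4, ROBO2, ROBO4, SEMA3C, SEMA3E, SEMA4A and UNC5A) reached at most 6 to 21 counts in any library. Per transcript length, the highest levels in control cells were those of the membrane-bound semaphorins SEMA6A (174 ± 8.66 TPM, SD, n = 3) and SEMA4C (107 ± 28.1 TPM, SD, n = 3). The receptors PLXND1 (74.3 ± 6.10 TPM, SD, n = 3), PLXNA1 (63.9 ± 20.3 TPM, SD, n = 3) and NRP2 (52.6 ± 7.10 TPM, SD, n = 3) and the ligand SLIT3 (55.9 ± 4.31 TPM, SD, n = 3) followed. Levels could be uneven within a family: SLIT3 stood far above SLIT1 (0.324 ± 0.0388 TPM) and SLIT2 (0.322 ± 0.0787 TPM), and the netrin receptor DCC was near 0 (0.0901 ± 0.0665 TPM), all SD with n = 3.

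**Figure D1:**
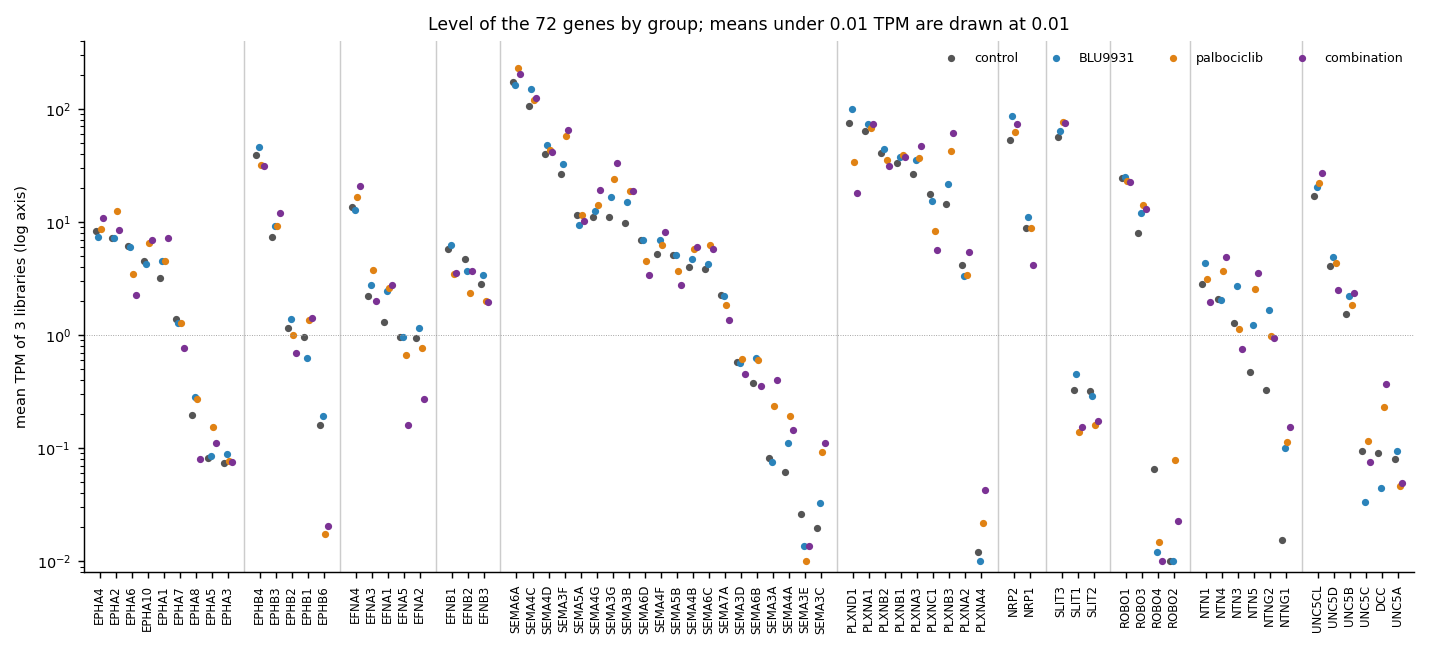
Mean TPM of the 3 libraries of each group (log axis) for the 72 genes, ordered within each family by the control level. SEMA6A is the highest gene in control at 174 TPM, and the dotted line marks 1 TPM.

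The response to the drugs was spread over ligands and receptors and went in both directions. Against control, BLU9931 alone raised 1 of 64 genes (NRP2) and lowered 0, where 0.141% of all tested genes rose and 0.0388% fell. At an unadjusted p under 0.05, 13 of the 64 passed in that comparison, where 16.2% of all tested genes did. DESeq2 called 2 of the 72, where it called 1.54% of all genes it tested. Palbociclib alone raised 11 (17.2%) and lowered 3 (4.69%), where 10.0% of all tested genes rose and 10.5% fell. Both drugs together raised 18 (28.1%) and lowered 12 (18.8%) against control, where the shares among all tested genes were 15.4% and 16.3%. The median log2 fold change of the 64 genes was 0.24, 0.21 and 0.18 in these comparisons, against 0.00, 0.01 and 0.03 for all tested genes. These medians rest in part on control 1: they were 0.14, 0.06 and 0.09 without it, and reached 0.28, 0.32 and 0.33 without control 3. With GC adjustment they were 0.07, 0.18 and 0.08. A gene is said to rise or fall here when edgeR's quasi-likelihood test gave an adjusted p under 0.05 (Benjamini-Hochberg over all 20612 genes), and log2 fold changes are given with their standard errors. These 3 comparisons share the control libraries. In bulk RNA, fewer cells of a type and less RNA per cell cannot be told apart.

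Adding BLU9931 to palbociclib raised 1 gene (EFNB2) and lowered 4 (EFNA5, NRP1, PLXNC1 and PLXND1), where 0.917% of all tested genes rose and 2.91% fell. Adding palbociclib to BLU9931 raised 12 and lowered 12, against 13.3% and 13.7% of all tested genes. The interaction, which asks whether the 2 drugs together differ from the sum of their separate log2 changes, was positive for EFNB2 and EPHB1 and negative for NRP1 and PLXND1, where 0.281% and 1.31% of all tested genes passed. In all, 39 of the 64 genes passed in at least 1 of the 6 comparisons and 25 in 0. The same share was not computed for all tested genes, so this count does not set the guidance genes apart. Of all tested genes, 31.7% passed in the combination against control alone. Rises made up less of the calls when GC content was adjusted for: palbociclib then raised 18 and lowered 11, and both drugs raised 22 and lowered 19. With scaling by library totals alone, both drugs raised 19 and lowered 8. Without control 1 and palbociclib 3, the counts against control were 17 and 8 with palbociclib and 18 and 16 with both drugs.

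The upstream sequences of the genes with the largest falls and rises are shown to let the reader see what lies in front of them. With both drugs against control, these were EFNA5 and PLXND1 among the falls and NTN5 and PLXNB3 among the rises, taken from genes with at least 1 CPM in a group and an entry in RefSeq's promoter table (GRCh38.p14). Each line is the strand of the gene, 5′ to 3′, ending just before the first annotated base of the gene in RefSeq or in the deposited table, whichever lies further upstream. Capitals mark the GC box, GGGCGG, or its complement.
EFNA5: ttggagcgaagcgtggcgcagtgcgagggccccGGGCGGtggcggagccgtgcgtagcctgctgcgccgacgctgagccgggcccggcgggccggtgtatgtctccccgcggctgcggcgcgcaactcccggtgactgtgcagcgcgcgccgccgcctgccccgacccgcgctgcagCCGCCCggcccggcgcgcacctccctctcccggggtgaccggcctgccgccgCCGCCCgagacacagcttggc
PLXND1: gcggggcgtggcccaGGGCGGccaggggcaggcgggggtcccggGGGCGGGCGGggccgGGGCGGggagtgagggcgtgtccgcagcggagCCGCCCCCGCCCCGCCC
NTN5: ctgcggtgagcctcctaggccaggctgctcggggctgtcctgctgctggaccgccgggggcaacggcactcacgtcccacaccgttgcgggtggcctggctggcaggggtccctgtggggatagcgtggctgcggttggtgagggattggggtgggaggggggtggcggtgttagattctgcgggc
PLXNB3: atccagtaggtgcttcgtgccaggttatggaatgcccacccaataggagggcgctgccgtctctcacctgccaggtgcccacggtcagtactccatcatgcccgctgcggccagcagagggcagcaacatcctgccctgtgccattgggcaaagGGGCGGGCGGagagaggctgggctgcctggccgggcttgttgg

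The windows are chr5:107670938-107671187 (EFNA5, minus strand), chr3:129606819-129606926 (PLXND1, minus strand), chr19:48673082-48673267 (NTN5, minus strand) and chrX:153763999-153764195 (PLXNB3, plus strand). GC content was 79.6% in front of EFNA5 and 88.9% in front of PLXND1, against 70.4% for NTN5 and 65.0% for PLXNB3. The GC box occurs 3 times in the EFNA5 window, 7 times in that of PLXND1, 2 times in that of PLXNB3 and 0 times in that of NTN5, overlapping copies counted. These windows differ in length, with 250 bases for EFNA5, 108 for PLXND1, 197 for PLXNB3 and 186 for NTN5. Their counts are therefore not directly comparable. Over the 250 bases before the start, the counts were 3 for EFNA5, 9 for PLXND1, 2 for PLXNB3 and 1 for NTN5. Over the 250 bases before each start, 61 of the 72 genes matched, with 95 alternative starts. The GC box lay in 70.5% of these 95 windows, on either strand, against 42.6% of all 35116 windows in the table. An E2F word (TTTCCCGC, TTTCGCGC, TTTGCCGC or TTTGGCGC, either strand) lay in 0 of the 95 windows and in 2.79% of all windows. The word TTTGAA, part of the cell cycle element CHR, lay in 8.42% of the 95 windows and in 13.3% of all. The E-box CACGTG lay in 4.21% against 6.34%, and the CRE word TGACGTCA in 3.16% against 1.65%. These are descriptions of letters in a window, not of binding.

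Plexins, the signalling receptors for semaphorins, held PLXND1, the most abundant gene per length in control among those that fell. In the sentences that follow, CPM are given for libraries 1, 2 and 3 of each group in that order. PLXND1, the receptor for SEMA3E (chr3:129555175-129606818), stood at 110, 143 and 146 CPM in control, 191, 203 and 185 with BLU9931, 82.2, 68.3 and 41.2 with palbociclib, and 32, 30.1 and 34.6 with both drugs. No library of a drug group overlapped the control range, and BLU9931 and palbociclib lay on opposite sides of it. PLXND1 fell by 1.05 ± 0.21 on the log2 scale with palbociclib (edgeR adjusted p = 0.00449) and by 2.04 ± 0.21 with both drugs (edgeR adjusted p = 3.15e-05), a 4.12-fold lower level. With BLU9931 alone the log2 fold change was 0.54 ± 0.21 (edgeR adjusted p = 0.26). It was 0.42 without control 1 and palbociclib 3 (edgeR adjusted p = 0.0404) and 0.10 ± 0.10 with GC adjustment (edgeR adjusted p = 0.645). The fall on adding BLU9931 to palbociclib was 0.99 ± 0.21 (edgeR adjusted p = 0.0218), and this call ended when any of palbociclib 1, palbociclib 2 or the 3 combination libraries was left out, with adjusted p up to 0.118. The ligand SEMA3E was not tested, with at most 8 counts in a library.

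PLXNC1, the receptor for SEMA7A (chr12:94148723-94307675), stood at 60.2, 55.5 and 56.1 CPM in control, 48.3, 47.4 and 45.2 with BLU9931, 24.1, 26.1 and 26.2 with palbociclib, and 17.1, 18.7 and 15.8 with both drugs. The 4 groups did not overlap, and libraries control 1 and palbociclib 3 lay with their own groups. It fell by 1.17 ± 0.11 with palbociclib (edgeR adjusted p = 3.26e-05) and by 1.74 ± 0.11 with both drugs (edgeR adjusted p = 6.49e-07). Against palbociclib alone, the combination lowered it by a further 0.57 ± 0.11 (edgeR adjusted p = 0.011), which no longer passed without combination 3 (adjusted p = 0.0577). CEP83 overlaps PLXNC1 on the opposite strand at a mean of 16.3 CPM over the 12 libraries, and whether the counting used strand is not given.

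PLXNB3, which is known as a receptor for SEMA5A, moved the other way. It stood at 15.4, 35.2 and 35.3 CPM in control, 44.7, 49.3 and 48.5 with BLU9931, 136, 116 and 46.2 with palbociclib, and 128, 126 and 157 with both drugs. All palbociclib and combination libraries were above all control libraries, although palbociclib 3 reached only the BLU9931 range. PLXNB3 rose by 1.80 ± 0.37 with palbociclib (edgeR adjusted p = 0.00599) and by 2.26 ± 0.38 with both drugs (edgeR adjusted p = 0.000899). Leaving out control 1 and palbociclib 3 gave rises of 1.82 and 1.94. SRPK3 overlaps it on the same strand, at a mean of 6.18 CPM.

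PLXNA3, a partner of neuropilins, stood at 63.4, 106 and 111 CPM in control, 106, 127 and 115 with BLU9931, 174, 156 and 89.5 with palbociclib, and 173, 176 and 202 with both drugs. Only the combination libraries all lay above every control library. PLXNA3 rose by 0.97 ± 0.25 with both drugs (edgeR adjusted p = 0.0107), and by 0.74 without control 1 and palbociclib 3. PLXNA2, which binds class 6 semaphorins, stood at 11.4, 19.8 and 19.0 CPM in control, 14.7, 14.9 and 13.7 with BLU9931, 14.5, 16 and 9.94 with palbociclib, and 22.7, 22.2 and 24.8 with both drugs. The combination libraries were the highest of all 12. PLXNA2 passed only between the combination and BLU9931, with a rise of 0.68 ± 0.22 (edgeR adjusted p = 0.0352). That call ended with 9 of the 12 single libraries left out, all but control 1, palbociclib 2 and palbociclib 3, with adjusted p up to 0.125. Leaving out control 1 and palbociclib 3, PLXNA2 also rose against palbociclib (0.61, edgeR adjusted p = 0.00374). There it fell with palbociclib against control (-0.36, edgeR adjusted p = 0.028). DESeq2 and GC adjustment (0.72, edgeR adjusted p = 0.00606) called the rise against palbociclib too.

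The other tested plexins, PLXNA1, PLXNB1 and PLXNB2, passed in 0 of the 6 comparisons. Each read lower in control 1 and palbociclib 3 than in the other libraries of the same group: PLXNA1 stood at 189 and 175 CPM in these and at 305 to 376 CPM in the other 10. PLXNB2, the receptor of SEMA4C, had a log2 fold change of -0.43 ± 0.26 with both drugs (edgeR adjusted p = 0.231). Without the 2 libraries the value was -0.66 (adjusted p = 0.000607).

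**Figure D2:**
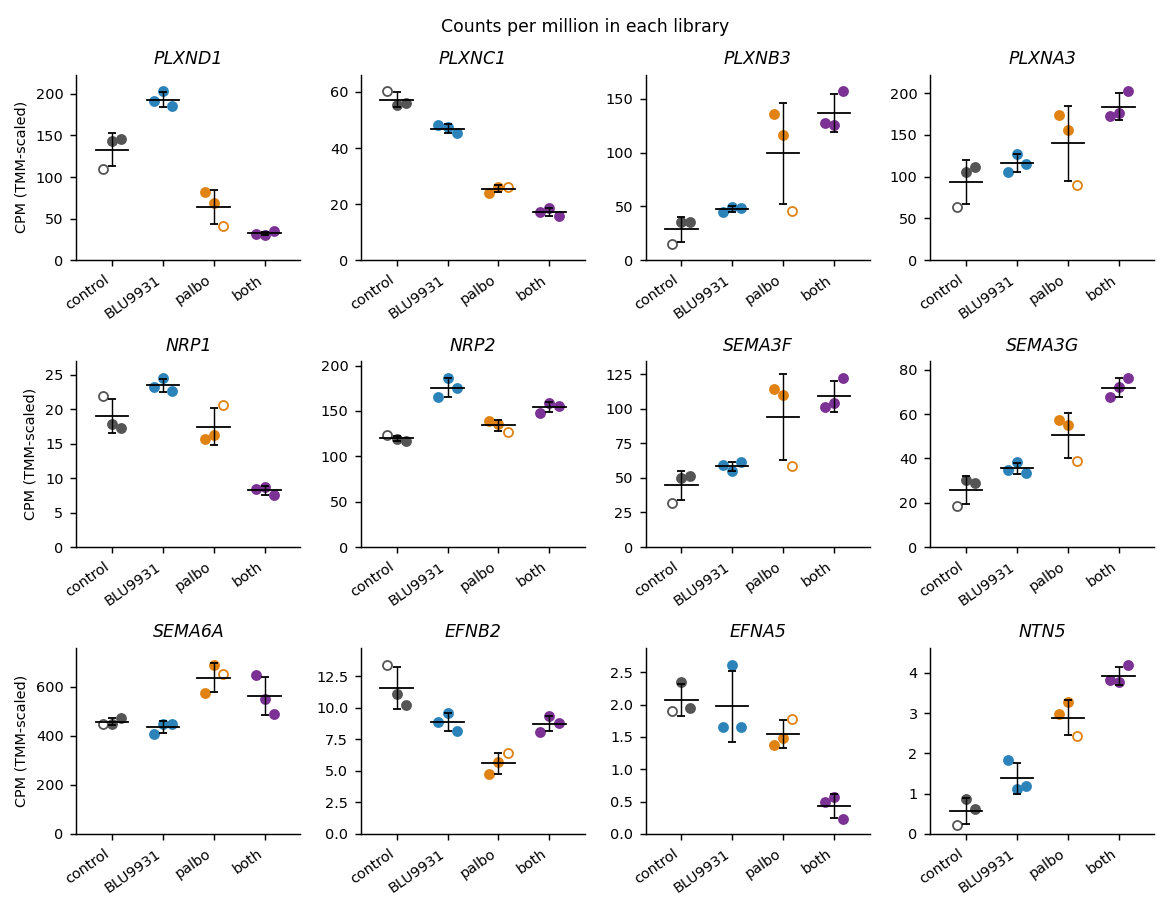
CPM in each library (points), with the mean and SD of the 3 libraries of a group (black); each panel has its own axis from 0, and open points are control 1 and palbociclib 3. PLXND1, PLXNC1, NRP1 and EFNA5 are lowest with both drugs, while PLXNB3, PLXNA3, SEMA3G and NTN5 have their highest group mean there.

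The neuropilins, co-receptors for class 3 semaphorins that also bind VEGF family ligands, went in opposite directions. NRP1 (chr10:33177492-33336262) stood at 21.9, 17.9 and 17.3 CPM in control, 23.2, 24.5 and 22.7 with BLU9931, 15.7, 16.2 and 20.6 with palbociclib, and 8.43, 8.71 and 7.53 with both drugs. The combination libraries all lay below every control library, while the palbociclib range overlapped that of control. NRP1 fell by 1.21 ± 0.15 with both drugs against control (edgeR adjusted p = 9.14e-05), by 1.09 ± 0.15 against palbociclib (edgeR adjusted p = 0.00138) and by 1.51 ± 0.15 against BLU9931 (edgeR adjusted p = 2.15e-05). Neither drug alone passed for NRP1, with log2 fold changes of 0.30 ± 0.14 for BLU9931 and -0.12 ± 0.14 for palbociclib. With GC adjustment the BLU9931 value passed (0.43 ± 0.08, edgeR adjusted p = 0.0192). The 3 calls with both drugs held with any single library left out and in every other setting tried.

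NRP2 (chr2:205681990-205798133), which binds SEMA3F and SEMA3G, stood at 123, 119 and 117 CPM in control, 165, 186 and 175 with BLU9931, 139, 136 and 127 with palbociclib, and 148, 159 and 155 with both drugs. All 3 treated groups lay above the control range, with BLU9931 highest. NRP2 rose by 0.55 ± 0.08 with BLU9931 (edgeR adjusted p = 0.0352) and by 0.36 ± 0.08 with both drugs (edgeR adjusted p = 0.00706), and it was the only one of the 64 genes to pass with BLU9931 alone. The BLU9931 call ended with any single library left out except palbociclib 1 and palbociclib 3, with adjusted p up to 0.145, and it held without control 1 and palbociclib 3 together, at a log2 fold change of 0.57. The call with both drugs held with any single library left out.

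Semaphorins were the largest family, with 17 of 20 tested. Palbociclib raised 5 (29.4%) and lowered 0, where 10.0% of all tested genes rose and 10.5% fell. Both drugs raised 6 (35.3%) and lowered 2 (11.8%), where the shares among all tested genes were 15.4% and 16.3%. Rises came mainly from the secreted class 3 genes. SEMA3F, a ligand of NRP2 (chr3:50155045-50189075), stood at 32.2, 50.2 and 51.1 CPM in control, 59.0, 54.9 and 61.5 with BLU9931, 114, 110 and 58.3 with palbociclib, and 101, 104 and 122 with both drugs. All drug libraries exceeded the control range. SEMA3F rose by 1.08 ± 0.24 with palbociclib (edgeR adjusted p = 0.00881) and by 1.29 ± 0.24 with both drugs (edgeR adjusted p = 0.00186). Without control 1 and palbociclib 3 the rises were 1.13 and 1.09.

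SEMA3G, also a class 3 ligand of NRP2 (chr3:52433053-52445085), stood at 18.7, 30.3 and 28.9 CPM in control, 34.9, 38.4 and 33.5 with BLU9931, 57.4, 55.1 and 38.9 with palbociclib, and 67.8, 72.1 and 76.2 with both drugs. The combination libraries were above all others. SEMA3G rose by 0.96 ± 0.19 with palbociclib (edgeR adjusted p = 0.00487) and by 1.47 ± 0.19 with both drugs (edgeR adjusted p = 0.00017).

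SEMA3B lies 78.5 kb from SEMA3F on chromosome 3 and is known as a candidate tumour suppressor of lung cancer. It stood at 9.87, 15.8 and 14.5 CPM in control, 17.4, 19.5 and 21.4 with BLU9931, 29.5, 28.4 and 17.1 with palbociclib, and 22.6, 22.7 and 30.7 with both drugs. No drug library overlapped control. SEMA3B rose by 0.90 ± 0.24 with palbociclib (edgeR adjusted p = 0.0197) and by 0.92 ± 0.24 with both drugs (edgeR adjusted p = 0.0117). The palbociclib call ended without control 1, palbociclib 1 or palbociclib 2 (adjusted p up to 0.0882), and the other without combination 3 (adjusted p = 0.0605). With GC adjustment the rise with both drugs was 0.56 (adjusted p = 0.00429).

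SEMA3A, the ligand of NRP1, was scarce. It stood at 0.521, 0.208 and 0.425 CPM in control, 0.255, 0.272 and 0.541 with BLU9931, 1.07, 0.984 and 1.05 with palbociclib, and 2.13, 1.74 and 1.41 with both drugs. Palbociclib and combination libraries did not overlap control or BLU9931. SEMA3A rose by 1.42 ± 0.36 with palbociclib (edgeR adjusted p = 0.0167), a call lost without control 2 (adjusted p = 0.0543) and with limma on log2 TPM (0.90, adjusted p = 0.0518), and by 2.18 ± 0.35 with both drugs (edgeR adjusted p = 0.00072). Per length its mean went from 0.0819 ± 0.0368 TPM in control to 0.399 ± 0.0793 TPM with both drugs (SD, n = 3).

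SEMA6A, a membrane-bound ligand of class A plexins (chr5:116443616-116574934), stood at 447, 448 and 472 CPM in control, 407, 449 and 448 with BLU9931, 573, 687 and 649 with palbociclib, and 645, 550 and 489 with both drugs. Palbociclib and the combination lay above the control range. SEMA6A rose by 0.48 ± 0.11 with palbociclib (edgeR adjusted p = 0.00844). With both drugs the log2 fold change was 0.30 ± 0.11 (edgeR adjusted p = 0.0509). Against BLU9931, the combination raised it by 0.37 ± 0.11 (edgeR adjusted p = 0.0244). This ended when any BLU9931 library, combination 1 or combination 2 was left out (adjusted p up to 0.141). SEMA6A-AS1, on the opposite strand, averaged 19.0 CPM in control and 32.1 CPM with palbociclib.

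The class 4 semaphorins are membrane-bound. SEMA4F stood at 8.93, 7.61 and 10.8 CPM in control, 11.5, 13.1 and 9.82 with BLU9931, 10.8, 14.6 and 11.8 with palbociclib, and 16.4, 14.9 and 14.9 with both drugs. SEMA4G stood at 8.04, 12.8 and 10.3 CPM in control, 16.5, 12.5 and 17.1 with BLU9931, 18.6, 16.2 and 10.5 with palbociclib, and 23.5, 17.7 and 20.4 with both drugs. For each, all combination libraries exceeded all control libraries. Both drugs raised SEMA4F by 0.75 ± 0.17 (edgeR adjusted p = 0.00619) and SEMA4G by 0.98 ± 0.24 (edgeR adjusted p = 0.00823). MRPL43 overlaps SEMA4G on the opposite strand at a mean of 21.2 CPM. The more abundant SEMA4C and SEMA4D, ligands of PLXNB2 and PLXNB1, passed in 0 of the 6 comparisons. With both drugs their log2 fold changes were 0.29 ± 0.26 and -0.03 ± 0.26. SEMA5A, the ligand of PLXNB3, did not pass either (-0.20 ± 0.12 with both drugs), nor did SEMA3D, SEMA4B, SEMA6B, SEMA6C and SEMA6D.

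SEMA7A, the membrane-anchored ligand of PLXNC1, and SEMA5B went down. SEMA7A stood at 3.24, 3.67 and 5.38 CPM in control, 3.99, 3.43 and 3.40 with BLU9931, 3.55, 2.36 and 2.22 with palbociclib, and 1.5, 1.96 and 2.68 with both drugs. SEMA5B stood at 6.22, 12 and 10.3 CPM in control, 10.1, 8.66 and 10.2 with BLU9931, 7.58, 7.20 and 3.76 with palbociclib, and 5.39, 4.12 and 5.63 with both drugs. The combination libraries lay below control for each. With both drugs SEMA7A fell by 1.00 ± 0.27 (edgeR adjusted p = 0.0157) and SEMA5B by 0.92 ± 0.29 (edgeR adjusted p = 0.0299). The SEMA7A call ended without control 3, combination 1 or combination 2 (adjusted p up to 0.0716), and the SEMA5B call without control 2, control 3 or any combination library (adjusted p up to 0.118). Against BLU9931 the falls were 0.81 ± 0.27 for SEMA7A (edgeR adjusted p = 0.0474) and 0.93 ± 0.29 for SEMA5B (edgeR adjusted p = 0.0319). The first ended with 7 single libraries left out (control 2, palbociclib 2, combination 1, combination 2 and every BLU9931 library; adjusted p up to 0.157), and the second without any BLU9931 or combination library (adjusted p up to 0.119).

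**Figure D3:**
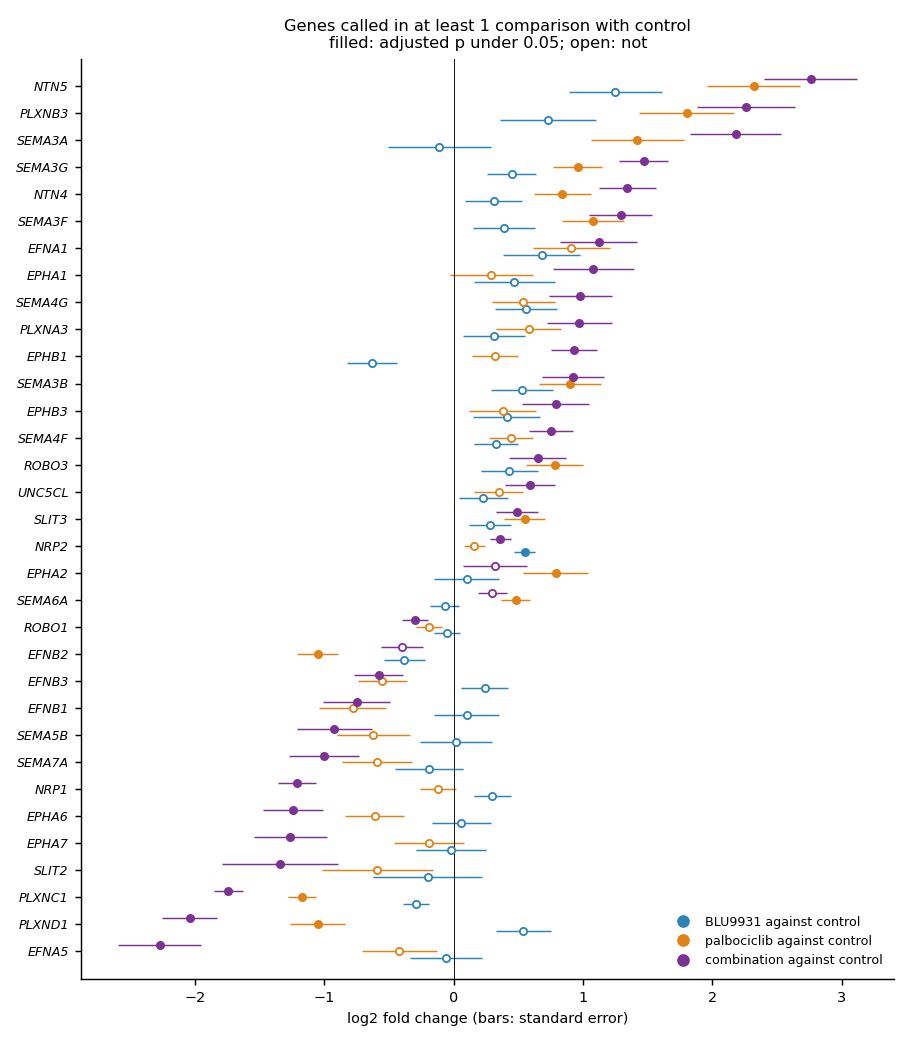
Log2 fold change against control with its standard error for the genes that passed in at least 1 of the 3 comparisons with control, ordered by the change with both drugs; filled points have an adjusted p under 0.05. With both drugs the values run from -2.27 for EFNA5 to 2.76 for NTN5, and NRP2 has the single filled point of BLU9931.

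Of the ephrins, the ligands of the Eph receptors, EFNA5 had the largest fall of the 64 genes with both drugs. EFNA5, held on the membrane by a lipid anchor like the other ephrin-A proteins (chr5:107376889-107670895), stood at 1.90, 2.35 and 1.95 CPM in control, 1.66, 2.61 and 1.66 with BLU9931, 1.37, 1.49 and 1.78 with palbociclib, and 0.499, 0.569 and 0.229 with both drugs. The combination libraries were the lowest of the 12, with a gap to all others. EFNA5 fell by 2.27 ± 0.32 against control (edgeR adjusted p = 0.000291) and by 1.85 ± 0.33 against palbociclib (edgeR adjusted p = 0.00789). With palbociclib alone the log2 fold change was -0.42 ± 0.29 (edgeR adjusted p = 0.342).

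EFNA1 is a ligand of EPHA2, and EFNA4, EFNA3 and EFNA1 lie in a row on chromosome 1 with gaps of 9.3 kb and 39.9 kb. EFNA1 stood at 0.745, 1.00 and 1.1 CPM in control, 1.40, 1.46 and 1.74 with BLU9931, 2.65, 1.14 and 1.58 with palbociclib, and 1.86, 1.92 and 2.45 with both drugs. All 9 drug libraries were above control. EFNA1 rose by 1.12 ± 0.30 with both drugs (edgeR adjusted p = 0.0146), which no longer passed without control 1 or combination 3 (adjusted p up to 0.0642). Its neighbour EFNA4 stood at 5.84, 10.1 and 9.94 CPM in control, 6.45, 8.38 and 8.62 with BLU9931, 11, 11.8 and 8.16 with palbociclib, and 12.5, 13.2 and 12.8 with both drugs. EFNA4 passed only against BLU9931, rising by 0.71 ± 0.22 (edgeR adjusted p = 0.0322). That call ended when any BLU9931 or combination library or palbociclib 1 was left out, with adjusted p up to 0.141. With GC adjustment EFNA4 also rose with both drugs against control (0.40 ± 0.14, edgeR adjusted p = 0.0306). EFNA3, between them, and EFNA2 on chromosome 19 passed in 0 comparisons.

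All 3 transmembrane ephrin-B ligands had negative log2 fold changes with palbociclib, and EFNB2 passed. EFNB1 (-0.78 ± 0.26, edgeR adjusted p = 0.0511) and EFNB3 (-0.55 ± 0.19, edgeR adjusted p = 0.0582) lay just above the threshold. Both were called by DESeq2 and with GC adjustment (edgeR adjusted p = 0.000704 and 0.026). Without control 1 and palbociclib 3, EFNB1 passed (-0.82, edgeR adjusted p = 0.0136) and EFNB3 did not. EFNB2, the ligand of EPHB4 (chr13:106489731-106535114), stood at 13.4, 11.1 and 10.2 CPM in control, 8.87, 9.64 and 8.19 with BLU9931, 4.73, 5.70 and 6.39 with palbociclib, and 8.11, 9.35 and 8.83 with both drugs. The palbociclib libraries were the lowest, and the combination range overlapped that of BLU9931. EFNB2 fell by 1.05 ± 0.16 with palbociclib (edgeR adjusted p = 0.000929), whereas with both drugs the log2 fold change was -0.40 ± 0.16 (edgeR adjusted p = 0.0727). Adding BLU9931 to palbociclib raised it by 0.65 ± 0.16 (edgeR adjusted p = 0.0466). That last call ended with any single library left out except control 1 and palbociclib 3, with adjusted p up to 0.146.

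EFNB1 stood at 7.26, 13.0 and 11.2 CPM in control, 9.21, 11.9 and 12.6 with BLU9931, 6.54, 7.36 and 4.36 with palbociclib, and 5.26, 5.76 and 7.59 with both drugs. EFNB3 stood at 5.17, 5.02 and 4.87 CPM in control, 5.98, 6.11 and 5.68 with BLU9931, 4.23, 2.99 and 3.03 with palbociclib, and 3.44, 2.63 and 4.02 with both drugs. Control 1 lay within the range of the palbociclib and combination libraries for EFNB1. For EFNB3 the palbociclib and combination libraries overlapped each other, and all of them lay below control. With both drugs EFNB1 fell by 0.75 ± 0.26 (edgeR adjusted p = 0.0429) and EFNB3 by 0.58 ± 0.19 (edgeR adjusted p = 0.0361). With library totals in place of TMM scaling these p-values were 0.071 and 0.0606, and each call ended with 7 of the 12 single libraries left out. For EFNB1 those were control 2, control 3, BLU9931 2, BLU9931 3, palbociclib 1, combination 1 and combination 2 (adjusted p up to 0.161), and for EFNB3 all controls, BLU9931 2, BLU9931 3, combination 1 and combination 2 (adjusted p up to 0.137). Against BLU9931, EFNB1 fell by 0.86 ± 0.26 (edgeR adjusted p = 0.0283), which no longer passed without BLU9931 2, BLU9931 3, combination 1 or combination 2 (adjusted p up to 0.106). EFNB3 fell there by 0.81 ± 0.19 (edgeR adjusted p = 0.00762).

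Among the 9 EPHA receptors, the kinases that bind mainly ephrin-A ligands, EPHA6 and EPHA7 fell with both drugs. EPHA6 stood at 7.52, 4.60 and 5.32 CPM in control, 6.03, 6.04 and 6.07 with BLU9931, 3.15, 4.48 and 3.80 with palbociclib, and 1.77, 2.95 and 2.62 with both drugs. EPHA7 stood at 5.40, 3.88 and 3.03 CPM in control, 3.82, 3.50 and 4.83 with BLU9931, 4.39, 2.71 and 3.64 with palbociclib, and 1.22, 2.06 and 1.80 with both drugs. For both receptors the combination libraries were below all others. With both drugs EPHA6 fell by 1.24 ± 0.23 (edgeR adjusted p = 0.00192) and EPHA7 by 1.26 ± 0.28 (edgeR adjusted p = 0.00494). For EPHA7 limma on log2 TPM gave -0.77 (adjusted p = 0.0716).

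EPHA2, the Eph receptor best known from epithelial tumours, stood at 8.79, 16.9 and 14.7 CPM in control, 15.3, 14.3 and 13.6 with BLU9931, 27.0, 27.3 and 15.5 with palbociclib, and 17.5, 15.2 and 17.7 with both drugs. Palbociclib 1 and 2 were far above control, and palbociclib 3 lay within its range. EPHA2 rose by 0.79 ± 0.25 with palbociclib (edgeR adjusted p = 0.0442), and the call ended with 10 of the 12 single libraries left out, all but control 2 and palbociclib 3 (adjusted p up to 0.168). The rise was 0.77 and held without control 1 and palbociclib 3. EPHA1 stood at 2.42, 4.22 and 4.50 CPM in control, 4.33, 6.31 and 4.79 with BLU9931, 6.20, 4.76 and 2.63 with palbociclib, and 7.48, 6.75 and 9.42 with both drugs. EPHA1 rose by 1.08 ± 0.31 with both drugs (edgeR adjusted p = 0.0212), which no longer passed without control 1, combination 1 or combination 3 (adjusted p up to 0.0875). ZYX overlaps EPHA1 on the opposite strand at 23.1 CPM in control and 33.6 CPM with both drugs.

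EPHA4, which binds ephrins of both classes, stood at 19.9, 18.9 and 16.5 CPM in control, 15.0, 15.1 and 14.7 with BLU9931, 13.0, 13.5 and 16.8 with palbociclib, and 20.9, 23.1 and 18.8 with both drugs. The single drugs lay below or within the control range and the combination within or above it. EPHA4 passed only between the combination and BLU9931, with a rise of 0.49 ± 0.14 (edgeR adjusted p = 0.0214). It ended without any BLU9931 library, combination 1 or combination 2 (adjusted p up to 0.094). Leaving out control 1 and palbociclib 3, EPHA4 also rose against palbociclib (0.66, edgeR adjusted p = 0.00464). There EPHA4 fell with palbociclib against control (-0.43, edgeR adjusted p = 0.0217). Its interaction was 0.84 ± 0.20 (edgeR adjusted p = 0.0617), and 0.90 without control 1 and palbociclib 3 (adjusted p = 0.00703). EPHA10, EPHA8, EPHA5 and EPHA3 passed in 0 comparisons, and EPHA3, EPHA5 and EPHA8 averaged under 1 CPM in every group.

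The EPHB receptors bind ephrin-B ligands. EPHB4, the most abundant Eph receptor per length (39.0 ± 11.3 TPM in control, SD, n = 3), passed in 0 of the 6 comparisons. Its log2 fold change with both drugs was -0.49 ± 0.24 (edgeR adjusted p = 0.153), and -0.69 without control 1 and palbociclib 3 (adjusted p = 0.000198). EPHB3 stood at 8.64, 16.9 and 14.9 CPM in control, 17.9, 19.2 and 16.5 with BLU9931, 21.9, 19.5 and 11.4 with palbociclib, and 20.8, 24 and 25.2 with both drugs. EPHB3 rose by 0.79 ± 0.26 with both drugs (edgeR adjusted p = 0.0397) and by 0.54 without control 1 and palbociclib 3. That call ended with 9 single libraries left out, all but control 2, palbociclib 1 and palbociclib 3 (adjusted p up to 0.128). EPHB2 passed in 0 comparisons.

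EPHB1 (chr3:134597801-135260467) stood at 1.49, 1.28 and 1.53 CPM in control, 0.849, 0.984 and 0.928 with BLU9931, 2.01, 1.85 and 1.5 with palbociclib, and 2.54, 2.77 and 2.91 with both drugs. BLU9931 lay below control and the combination above it, with no overlap, while palbociclib 3 fell in the control range. EPHB1 rose by 0.93 ± 0.18 with both drugs against control (edgeR adjusted p = 0.00231) and by 1.57 ± 0.19 against BLU9931 (edgeR adjusted p = 0.000104). The deposited TPM values differed from the counts here: their means were 0.966 ± 0.490 in control and 1.42 ± 0.339 with both drugs (SD, n = 3), and limma on log2 TPM gave 0.58 against control (adjusted p = 0.257).

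For 4 genes the interaction passed: the effect of the drugs together differed from the sum of their separate effects. NRP1 had an interaction of -1.39 ± 0.21 on the log2 scale (edgeR adjusted p = 0.00575): BLU9931 without palbociclib went with 0.30 ± 0.14 and with palbociclib with a fall of 1.09 ± 0.15. PLXND1 had an interaction of -1.53 ± 0.29 (edgeR adjusted p = 0.0264), from 0.54 ± 0.21 without palbociclib to a fall of 0.99 ± 0.21 with it. EFNB2 went the other way, with an interaction of 1.02 ± 0.22 (edgeR adjusted p = 0.0463), from -0.38 ± 0.16 to a rise of 0.65 ± 0.16. EPHB1 also did, with 1.25 ± 0.26 (edgeR adjusted p = 0.0411), from -0.63 ± 0.19 to 0.62 ± 0.18. Without palbociclib, the BLU9931 effect passed for none of these 4 genes (edgeR adjusted p from 0.192 to 0.327), but this depended on the setting. With GC adjustment that of NRP1 passed (0.43 ± 0.08, edgeR adjusted p = 0.0192). Those of EPHB1 (-0.70 ± 0.17, 0.0508), EFNB2 (-0.38 ± 0.15, 0.178) and PLXND1 (0.10 ± 0.10, 0.645) did not. Leaving out control 1 and palbociclib 3, that of PLXND1 passed (0.42, edgeR adjusted p = 0.0404) and that of NRP1 did not (0.42, 0.0539). The interaction of NRP1 held with any single library left out. Those of EFNB2 and EPHB1 ended with any single library left out except palbociclib 3, with adjusted p up to 0.133 and 0.119, and that of PLXND1 with any except control 1 and palbociclib 3, with adjusted p up to 0.0931. Those of EFNB2 and EPHB1 also ended without the filter on low counts and with limma on log2 TPM, which gave adjusted p of 0.114 for EFNB2 and 0.57 (adjusted p = 0.695) for EPHB1. With a replicate block in the edgeR fit, the interactions of EFNB2, EPHB1 and PLXND1 ended (adjusted p = 0.13, 0.123 and 0.093), while that of NRP1 held (adjusted p = 0.0323). Some genes passed only in other settings. EFNA5 (-1.79 ± 0.43, edgeR adjusted p = 0.0724) passed with DESeq2 and GC adjustment (-1.92, edgeR adjusted p = 0.0147), but not without control 1 and palbociclib 3. PLXNA2 (1.00 ± 0.30, edgeR adjusted p = 0.156) passed with GC adjustment (1.03, edgeR adjusted p = 0.00803) and without these 2 libraries (1.03, edgeR adjusted p = 0.00195).

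**Figure D4:**
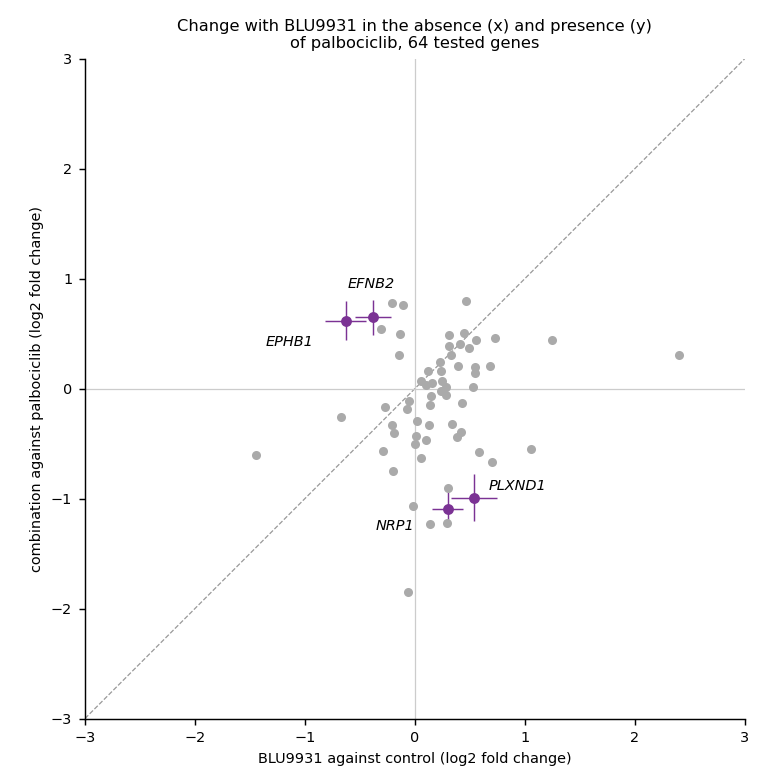
Log2 fold change of BLU9931 against control (x axis) and of the combination against palbociclib (y axis) for the 64 tested genes; the dashed line marks equal change, and bars show standard errors for the 4 genes with an interaction. NRP1 (0.30 and -1.09) and PLXND1 (0.54 and -0.99) lie below the line, EFNB2 (-0.38 and 0.65) and EPHB1 (-0.63 and 0.62) above it.

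Of the 5 tested SLIT and ROBO genes, 2 passed with palbociclib and 4 with both drugs, where 20.6% and 31.7% of all tested genes did. SLIT3, the abundant SLIT ligand here, stood at 201, 277 and 264 CPM in control, 301, 319 and 279 with BLU9931, 406, 406 and 278 with palbociclib, and 322, 333 and 388 with both drugs. All drug libraries were above control, although palbociclib 3 was so by only 1 CPM. SLIT3 rose by 0.55 ± 0.16 with palbociclib (edgeR adjusted p = 0.0311) and by 0.49 ± 0.16 with both drugs (edgeR adjusted p = 0.0366). The palbociclib call ended with 8 single libraries left out (control 1, control 3, BLU9931 1, BLU9931 2, palbociclib 1, palbociclib 2, combination 1 and combination 2; adjusted p up to 0.142), and the other with all but palbociclib 3 (adjusted p up to 0.158). AC011389.1, on the opposite strand within SLIT3, averaged 26.0 CPM in control and 65.3 CPM with palbociclib. SLIT2 averaged under 1 CPM in every group and fell by 1.34 ± 0.45 with both drugs (edgeR adjusted p = 0.041). With control 1 and palbociclib 3 left out the SLIT2 value was -1.17 (adjusted p = 0.106), and with library totals the adjusted p was 0.0505. With limma on log2 TPM it was -0.78 (adjusted p = 0.15). Its call also ended with 8 single libraries left out (control 1, control 2, BLU9931 3, palbociclib 1, palbociclib 2 and every combination library; adjusted p up to 0.126). SLIT1 passed in 0 comparisons.

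ROBO1, the SLIT receptor with the highest level per length here, stood at 74.3, 73.7 and 65.8 CPM in control, 72.5, 64.1 and 69.4 with BLU9931, 60.6, 59.6 and 67.1 with palbociclib, and 57.7, 58.6 and 57.3 with both drugs. It fell by 0.30 ± 0.10 with both drugs (edgeR adjusted p = 0.0377). Scaling by library totals ended this call (adjusted p = 0.0813), as did leaving out control 1, control 2, BLU9931 3 or any combination library (adjusted p up to 0.0839). With limma on log2 TPM the value was -0.12 (adjusted p = 0.438). ROBO3, a divergent member of the family, stood at 5.21, 8.27 and 7.67 CPM in control, 8.96, 10.7 and 8.85 with BLU9931, 14.1, 13.5 and 8.85 with palbociclib, and 11.3, 9.63 and 12.4 with both drugs. All drug libraries were above control. ROBO3 rose by 0.78 ± 0.22 with palbociclib (edgeR adjusted p = 0.0255) and by 0.65 ± 0.22 with both drugs (edgeR adjusted p = 0.0387). The first call ended without control 1, control 3, palbociclib 1 or palbociclib 2 (adjusted p up to 0.109), and the second with any single library but control 2 and palbociclib 3 (adjusted p up to 0.143). With GC adjustment the rise with both drugs was 0.35 (adjusted p = 0.0469).

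The netrins NTN1, NTN3, NTN4 and NTN5 are secreted relatives of laminins. NTN5, one of the less studied members (chr19:48661407-48673081), had the largest rise of the genes that passed. It stood at 0.223, 0.865 and 0.623 CPM in control, 1.83, 1.12 and 1.20 with BLU9931, 2.98, 3.27 and 2.42 with palbociclib, and 3.81, 3.77 and 4.19 with both drugs. The 4 groups did not overlap. NTN5 rose by 2.32 ± 0.36 with palbociclib (edgeR adjusted p = 0.00101) and by 2.76 ± 0.36 with both drugs (edgeR adjusted p = 0.000146), whereas BLU9931 alone gave 1.25 ± 0.36 (edgeR adjusted p = 0.18). Without control 1 and palbociclib 3 the rises were 2.06 and 2.38.

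NTN4, a netrin of basement membranes, stood at 2.01, 3.43 and 3.88 CPM in control, 3.65, 4.07 and 3.87 with BLU9931, 5.57, 4.88 and 6.34 with palbociclib, and 7.34, 7.75 and 8.51 with both drugs. Palbociclib lay above control and BLU9931, and the combination above palbociclib. NTN4 rose by 0.84 ± 0.22 with palbociclib (edgeR adjusted p = 0.0176) and by 1.34 ± 0.22 with both drugs (edgeR adjusted p = 0.000707). The palbociclib value was 0.50 without control 1 and palbociclib 3, and its call ended without palbociclib 1 (adjusted p = 0.0512).

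NTN1, the classical ligand of DCC and the UNC5 proteins, stood at 7.52, 10.8 and 9.43 CPM in control, 14.3, 14.1 and 13.0 with BLU9931, 10.5, 11.3 and 5.46 with palbociclib, and 4.21, 6.79 and 7.20 with both drugs. NTN3 stood at 0.707, 1.21 and 2.32 CPM in control, 2.21, 2.85 and 3.87 with BLU9931, 1.34, 1.85 and 0.364 with palbociclib, and 0.725, 0.818 and 0.883 with both drugs. For NTN1 the BLU9931 libraries were the highest of all and the combination libraries lay below control. Each passed only between the combination and BLU9931, where NTN1 fell by 1.18 ± 0.28 (edgeR adjusted p = 0.00801) and NTN3 by 1.87 ± 0.52 (edgeR adjusted p = 0.0197). The NTN3 call ended without BLU9931 3 or any combination library (adjusted p up to 0.071). Other settings called more. Leaving out control 1 and palbociclib 3, both genes fell with both drugs against control. The values were -0.75 for NTN1 (edgeR adjusted p = 0.0109) and -1.14 for NTN3 (edgeR adjusted p = 0.0213). There NTN1 also fell against palbociclib (-0.84, edgeR adjusted p = 0.0221). The interactions were -1.29 for NTN1 (edgeR adjusted p = 0.0172) and -1.71 for NTN3 (edgeR adjusted p = 0.0469). NTNG1 and NTNG2 passed in 0 comparisons.

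Of the genes named for netrin receptors, UNC5CL was the most abundant per length in control (16.8 ± 4.22 TPM, SD, n = 3), although it is a relative that lacks the netrin-binding outer part of the UNC5 receptors. It stood at 19.9, 27.4 and 32 CPM in control, 31.9, 31.6 and 29.6 with BLU9931, 38.7, 36.6 and 25.9 with palbociclib, and 40.6, 36.2 and 42.4 with both drugs. UNC5CL rose by 0.59 ± 0.19 with both drugs (edgeR adjusted p = 0.0323) and by 0.40 without control 1 and palbociclib 3. That call ended with 9 single libraries left out, all but control 3, palbociclib 1 and palbociclib 3 (adjusted p up to 0.119). OARD1 overlaps UNC5CL on the same strand at a mean of 24 CPM. DCC averaged under 1 CPM in every group and rose by 1.41 ± 0.45 between BLU9931 and the combination (edgeR adjusted p = 0.0373). The DCC call was not made by DESeq2 (adjusted p = 0.0562) and ended without control 2, any BLU9931 library, combination 2 or combination 3 (adjusted p up to 0.129). UNC5B, UNC5C and UNC5D passed in 0 comparisons.

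Over the 12 libraries, the genes whose log2 CPM followed PLXNC1 most closely were EPHA6 and PLXND1 (Pearson r = 0.900 for each) and ROBO1 (r = 0.878). For NRP1 they were EFNA5 (r = 0.933), EPHA6 (r = 0.875) and EPHA7 (r = 0.868). The libraries share their groups, so these values describe the groups as much as the genes.

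Of 50 cytoplasmic signalling partners and actin regulators downstream of these receptors, palbociclib raised 4 (8%) and lowered 5 (10%), against 10.0% and 10.5% of all tested genes. Both drugs raised 11 (22%) and lowered 9 (18%), against 15.4% and 16.3%, and the median log2 fold change was 0.05 and 0.03. These shares lie near those of all genes. BLU9931 alone called 0 of them. DPYSL5, a collapsin response mediator protein of the semaphorin pathway, fell from 44.6 ± 4.23 CPM in control to 14.8 ± 3.76 CPM with palbociclib and 5.33 ± 1.28 CPM with both drugs (SD, n = 3). The falls were 1.60 ± 0.24 (edgeR adjusted p = 0.000947) and 3.06 ± 0.26 (edgeR adjusted p = 5.91e-06), and its interaction was -1.70 ± 0.34 (edgeR adjusted p = 0.0329). VASP, which promotes actin filament growth, rose by 1.22 ± 0.16 with both drugs (edgeR adjusted p = 0.0002), and SRGAP3, which is bound by ROBO receptors, by 0.83 ± 0.11 (edgeR adjusted p = 0.000152). CRMP1 rose by 0.95 ± 0.17 with palbociclib (edgeR adjusted p = 0.00255). These calls against control held with any single library left out and without control 1 and palbociclib 3, where the DPYSL5 falls were 1.5 and 3.16. The DPYSL5 interaction ended with 9 single libraries left out, all but BLU9931 2, palbociclib 3 and combination 3 (adjusted p up to 0.0931). Against palbociclib, the combination lowered 3 of the 50 (6%) and raised 0, where 2.91% of all tested genes fell and 0.917% rose. The genes lowered were DPYSL5, PAK1 and RND3. The PAK1 call ended with 9 single libraries left out, all but control 1, BLU9931 3 and palbociclib 2 (adjusted p up to 0.125). That of RND3 ended with 8, all but palbociclib 1 and the controls (adjusted p up to 0.141).

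Of 26 other guidance ligands and receptors, 25 were tested. Palbociclib raised 2 (8%) and lowered 0, against 10.0% and 10.5% of all tested genes. Both drugs raised 5 (20%) and lowered 3 (12%), against 15.4% and 16.3%. The median log2 fold changes were 0.05 and 0.17, against 0.01 and 0.03 for all tested genes. NFASC, an adhesion molecule of the L1 family, rose by 1.18 ± 0.31 with palbociclib (edgeR adjusted p = 0.0203) and by 1.66 ± 0.31 with both drugs (edgeR adjusted p = 0.00194). DRAXIN, a secreted ligand of netrin receptors, rose by 1.26 ± 0.23 with both drugs (edgeR adjusted p = 0.00147). RGMA, a ligand of the DCC relative neogenin, fell by 1.97 ± 0.42 with both drugs (edgeR adjusted p = 0.00437), from 10.6 ± 4.48 CPM in control to 2.70 ± 0.468 CPM (SD, n = 3). The NFASC call with palbociclib ended without control 1, control 2, palbociclib 1 or palbociclib 2 (adjusted p up to 0.0889), and the calls with both drugs held with any single library left out. The remaining call with palbociclib was a rise of CHL1 by 0.31 ± 0.10 (edgeR adjusted p = 0.0421), which ended with 7 single libraries left out: control 2, control 3, BLU9931 1, BLU9931 2, palbociclib 2, palbociclib 3 and combination 3 (adjusted p up to 0.128).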

How the data were processed

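RNA-seq of 12 H520 libraries was analysed, 3 in each of 4 groups taken from the sample titles. The deposited table gives raw counts per gene and library per the file headers, beside TPM values per the file headers and FPKM values per the file headers, which were not used. Tools listed in the submitters' processing notes are HISAT2 2.0, StringTie 1.3.3b, Trimmomatic 0.36 and bedtools 2.26.0, and the build listed is a mouse one, although the gene IDs are human. The counting mode, strand and annotation release are not given in the sources used here. Of the 72 genes, 67 have the same start and end in GENCODE 29 (GRCh38). It holds 0 columns of other samples.

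Counts of all 12 libraries were fitted together in edgeR 4.0.16 (R 4.3.3; TMM scaling, filterByExpr, robust quasi-likelihood, two-sided tests), with 8 residual degrees of freedom and Benjamini-Hochberg adjustment over 20612 genes. CPM are scaled by TMM. Alternatives were library totals, no filter, a replicate block, adjustment for GC content of the longest transcript, the 2 libraries that stand apart left out, DESeq2 1.42.0, limma 3.58.1 on log2(TPM + 0.1), and each library left out in turn. The fit was tested on simulated data. Each single-library or per-gene precision rests on the counting depth of 21730722 to 35786607 counts and on 3 libraries.

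Members and gene lists were chosen with earlier results of these data known. Values in every library are given for genes that passed in at least 1 comparison and averaged at least 1 CPM in a group. Other genes are given by counts or group values, and genes outside the families come from the lists, up to 3 per list and comparison with the smallest adjusted p.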

Additional observations from a re-analysis of the deposited data

Results flagged for a closer look

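The effect of BLU9931 differed with and without palbociclib for 4 genes, by a test of the difference itself (edgeR interaction term). The log2 interaction was -1.39 for NRP1, -1.53 for PLXND1, 1.02 for EFNB2 and 1.25 for EPHB1. With control 1 and palbociclib 3 left out the values were -1.38, -1.65, 1.01 and 1.11, and each still passed. With a single library left out, the NRP1 call held throughout, while the calls ended with 10 of the 12 libraries for PLXND1 and 11 each for EFNB2 and EPHB1. Those of EFNB2 and EPHB1 also ended without the filter on low counts and with limma on log2 TPM, where EPHB1 had 0.57 (adjusted p = 0.695). With a replicate block in the edgeR fit, the calls of PLXND1, EFNB2 and EPHB1 ended (adjusted p = 0.093, 0.13 and 0.123).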

How the results depend on the processing

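No call turned its direction in any setting. Of 78 calls over the 6 comparisons, 0 ended with GC adjustment, 1 each with DESeq2 and with control 1 and palbociclib 3 left out, 2 with GC adjustment and the replicate block, 5 with library totals, 20 without the filter on low counts, and 23 each with the replicate block and with limma on log2 TPM. Leaving out a single library ended between 0 (palbociclib 3) and 27 (combination 1 or combination 2) of the 78. The share of all tested genes called moved along with the number of guidance genes: for palbociclib against control it was 20.6%, 34.5% with GC adjustment and 28.6% without control 1 and palbociclib 3. For the combination it was 31.7%, 43.7% and 38.8% against control, 3.82%, 11% and 9.69% against palbociclib, and 27.0%, 41.2% and 41.2% against BLU9931. For BLU9931 alone it was 0.18%, 3.36% and 2.62%, and for the interaction 1.59%, 8.39% and 10.0%. For BLU9931 against control (1 called) it was 0 without the filter and with limma, and 2 with GC adjustment, with both libraries left out and with DESeq2, and it ranged from 0 to 1 with a library left out. For palbociclib against control (14) it was 29 with GC adjustment and 25 with both libraries left out, and ranged from 10 to 21. For the combination against control (30) it was 41 with GC adjustment and 34 with both libraries left out, and ranged from 19 (without combination 1) to 36 (without palbociclib 3). Against palbociclib (5) the combination gave 16 with GC adjustment, 13 with both libraries left out, 9 with DESeq2 and 3 with limma, and ranged from 2 (without combination 3) to 8 (without control 1). Against BLU9931 (24) it gave 42 with GC adjustment and 43 with both libraries left out, and ranged from 15 (without BLU9931 3) to 33 (without palbociclib 3). For the interaction (4) it was 2 without the filter and with limma, 11 with GC adjustment and 10 with both libraries left out, and ranged from 1 to 6. Without the filter all 72 genes were tested.

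With the replicate block the numbers called were 0 for BLU9931 and 11 for palbociclib against control, 21 for the combination against control, 3 for it against palbociclib, 19 for it against BLU9931 and 1 for the interaction. With GC adjustment and the replicate block together they were 2 for BLU9931, 26 for palbociclib, 38 for the combination against control, 12 for the combination against palbociclib, 40 for it against BLU9931 and 8 for the interaction. Nothing in the labels says that a replicate number marks a shared culture or day. Of 18 same-numbered pairs of libraries, 3 had deviations correlated above 0.1 (r from -0.364 to 0.168). Differently numbered pairs had r from -0.277 to 0.464. Such correlations cannot exclude a shared culture or day, so whether the numbers pair the samples is not known. The cause of these shifts was not tested.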
